A study of Mus musculus with 3 samples.

Results

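The Fc gamma receptor genes Fcgr1, Fcgr2b, Fcgr3 and Fcgr4, the shared signalling adaptor Fcer1g and the neonatal Fc receptor gene Fcgrt were examined in sorted cells from mice bearing renal tumors. These 6 genes were chosen by name as receptors for the constant part of IgG antibodies and their adaptor, and not by their levels. In all, 36835 genes had a value in all 3 libraries, zeros included, and 12703 reached 1 FPKM in at least 1 library. RNA was sequenced from type-1 macrophages (M1), type-2 macrophages (M2) and CD4 T cells (CD4), with 1 library for each. The study asked whether Foxp3 RNA is present in macrophages, and the Fc receptors were not its subject.

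All mice were of the BALB/C strain and carried tumors injected into the kidney. The labels call the cells Renca, a mouse renal cancer line, and the paper names for this experiment its derivative Renca Ch+ L+, which carries Cherry and luciferase. The labels name no genetic change and no other treatment. Macrophages came from 30 pooled tumors and were sorted on surface markers, M2 as high for F4/80 with intermediate CD11b and M1 as the reverse. CD4 T cells were sorted on the T cell receptor beta chain and CD4, and came from 4 pooled spleens by the protocol text, whereas their cell type label names tumors. The labels give both day 14 and day 16 for the harvest.

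Levels are in FPKM, the fragments of a transcript divided by its length and by the size of the library, so that they can be compared between genes. In units of 1000000 fragments, the depth was estimated as 61.2 for the M1 library, 59.5 for M2 and 69.6 for CD4. Marker genes go against 2 of the 3 labels. All 10 macrophage markers were more than 2-fold lower in the library labelled M2 than in either of the others, and all 10 T cell markers were more than 2-fold higher there. Cd3e, a chain of the T cell receptor complex, had 126 FPKM under the label M2, 0.141 under CD4 and 0.131 under M1. Csf1r, the receptor for the macrophage growth factor, had 15.3, 519 and 279 FPKM, listed alike. The libraries are therefore called by their labels throughout, and every direction between them rests on those labels. With 1 library each, no difference has a replicate check and no p-value is given.

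Fc gamma receptors let macrophages bind antibody-coated targets and immune complexes. Fcgr1, Fcgr3 and Fcgr4 encode activating receptors, which have no signalling motif of their own and rely on the adaptor encoded by Fcer1g. Its tail carries an ITAM, a pair of tyrosines that recruit kinases once phosphorylated. Fcgr2b encodes the inhibitory receptor, whose ITIM, a motif around a lone tyrosine, recruits phosphatases. Fcgrt encodes the heavy chain of FcRn, which pairs with beta-2 microglobulin and returns IgG from endosomes to the cell surface. Mouse macrophages are known for expressing these receptors, whereas T cells mostly lack them.

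The coding bases of these motifs show how the inhibitory receptor and the adaptor differ, and both lie on chromosome 1, reverse strand, in build NCBIM37 (mm9). The ITIM of Fcgr2b is encoded at chr1:172891202-172891219, in exon 7 of transcript Fcgr2b-003. The ITAM of Fcer1g is encoded between chr1:173160020 and 173160203, where exons 4 and 5 of Fcer1g-001 meet, so that this span includes an intron. Capitals mark the codons of the tyrosines.
Fcgr2b ITIM: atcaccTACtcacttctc
Fcer1g ITAM: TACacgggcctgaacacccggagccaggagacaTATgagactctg
An ITAM pattern, 2 tyrosines each followed by a leucine or isoleucine, was found in the coding sequence of Fcer1g and in none of the coding transcripts with a level of the other 5 genes. A looser ITIM pattern was in Fcgr2b-003 but also in Fcgr1, Fcgr4, Fcer1g and Fcgrt, so that it marks no receptor as inhibitory by itself.

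Fcgr2b (172890689 to 172906678, reverse strand), Fcgr4 (172949051 to 172959892, forward) and Fcgr3 (172981300 to 172995066, reverse) are neighbours on chromosome 1 of NCBIM37. Between them lie 42372 and 21407 bases. Fcer1g follows 164636 bases further, at 173159703 to 173164496 on the reverse strand. Fcgr1 lies apart on chromosome 3 (96086832 to 96098179, reverse), and Fcgrt on chromosome 7 (52348363 to 52359192, reverse).

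All 6 genes were at lower levels in the library labelled M2 than in either other library, by 3.59-fold to 31.1-fold. In the rows used, each was at its highest in the library labelled CD4, as was every macrophage marker but Itgam. For Fcgr2b this turned when all its rows were summed, to 4431 FPKM in M1 and 842 in CD4. Between the libraries labelled CD4 and M1 the genes differed unequally, from 1.06-fold for the adaptor Fcer1g to 6.41-fold for Fcgrt. Fewer cells of a type and less RNA per cell cannot be told apart in RNA from pooled cells.

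Fcgr1, the receptor of high affinity that binds IgG without a complex, was at 69.7 FPKM (M1), 4.70 (M2) and 127 (CD4). It was 1.83-fold higher in the CD4 than in the M1 library (95% counting interval 1.78 to 1.88). Intervals of this kind come from the estimated number of fragments, here 557 to 17399 a library, and cover counting error only, not differences between mice or sorts.

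Fcgr3, an activating receptor of low affinity for immune complexes, was at 97.2 FPKM (M1), 9.51 (M2) and 296 (CD4). Its level in the CD4 library was 3.05-fold that in the M1 library (2.97 to 3.13) and 31.1-fold that in the M2 library, the widest gap of the 6 genes between those 2 libraries.

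Fcgr4, an activating receptor of mice that binds IgG2a and IgG2b, had the lowest level of the 6 in each library. It was at 14.2 FPKM (M1), 2.95 (M2) and 42.5 (CD4), and was 2.99-fold higher in the CD4 than in the M1 library (2.79 to 3.20). The estimated 220 fragments in the M2 library stood far above the level of 3 fragments, which is 0.0401 FPKM for this gene.

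Fcgr2b, the inhibitory receptor, had the highest level of the 6 in each library, at 610 FPKM (M1), 37.6 (M2) and 781 (CD4). In the M1 library it exceeded 99.6% of the genes with at least 1 FPKM. It was 1.28-fold higher in the CD4 than in the M1 library (1.27 to 1.29), less than for any activating receptor. This direction depends on which rows of the gene are used. With all its rows summed the ratio was 0.190, through rows of the M1 library that are described below.

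Fcer1g, the adaptor, was nearly as high as Fcgr2b, at 498 FPKM (M1), 32.3 (M2) and 530 (CD4). The CD4 to M1 ratio of 1.06 was the nearest to 1 of the 6 genes (1.05 to 1.08). Relative to the summed activating receptors that depend on it, Fcer1g was 2.75-fold in the M1 library, 1.88-fold in M2 and 1.14-fold in CD4. The adaptor thus stood above the sum of these receptors in every library, with the smallest excess in the CD4 library.

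Fcgrt, the FcRn heavy chain, was at 56.9 FPKM (M1), 15.9 (M2) and 365 (CD4). It had the largest CD4 to M1 ratio, 6.41 (6.24 to 6.58), and the smallest M1 to M2 ratio, 3.59. It stood above Fcgr4 alone in the M1 library, but above Fcgr4, Fcgr1 and Fcgr3 in the others. B2m, which encodes its light chain, was at 1300 FPKM (M1), 1668 (M2) and 1761 (CD4). The B2m levels thus stayed within 2-fold, while Fcgrt was 23.0-fold lower in the M2 than in the CD4 library.

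**Figure D1:**
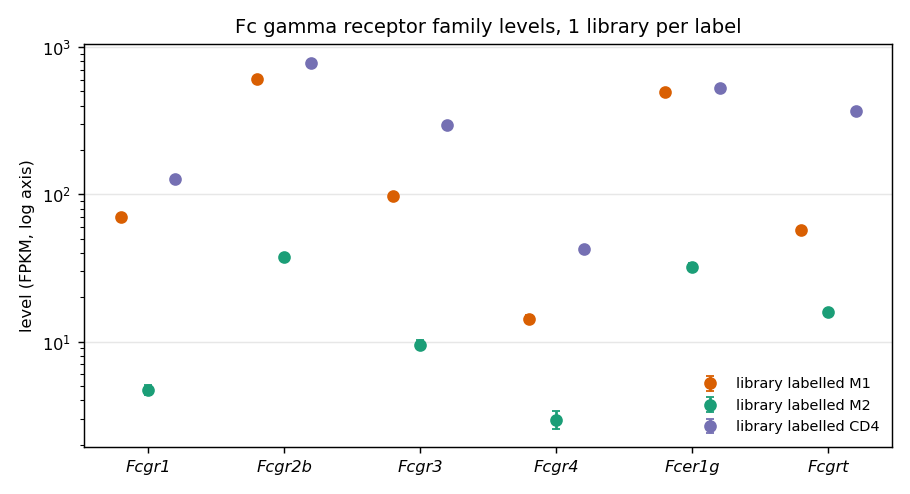
Levels of the 6 genes in FPKM on a log axis, with 1 point for each of the libraries labelled M1, M2 and CD4 and bars for the 95% counting interval, mostly hidden by the points. The M2 point is the lowest for every gene, and the CD4 and M1 points lie close for Fcer1g (530 and 498 FPKM) and far apart for Fcgrt (365 and 56.9 FPKM).

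A ratio of at least 2-fold, taken on FPKM + 1 and limited to genes that reached 1 FPKM in either library compared, was set beside the same count over all genes. The scale understates differences of low genes. Between the libraries labelled M2 and M1, 6 of 6 members were lower in M2 and 0 higher, where 14.5% of 12443 genes were lower and 17% higher. Between the libraries labelled M2 and CD4, 6 of 6 were again lower in M2 and 0 higher, where 15.3% of 12438 genes were lower and 17.3% higher. These comparisons share the M2 library and are not independent. Rescaled to equal totals, 64.7% of the genes past 2-fold between M2 and M1 were higher in M2, against 53.9% as deposited, and the 6 members were lower in M2 on each scaling.

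From the CD4 to the M1 library, 3 of 6 members (Fcgr3, Fcgr4 and Fcgrt) were higher in CD4 and 0 were lower, where 6.98% of 11587 genes were higher and 7.24% lower. Fcgr1, Fcgr2b and Fcer1g were within 2-fold. With all rows, or with the largest row of each identifier, Fcgr2b was past 2-fold lower in CD4, so that 1 member was lower. The median log2 ratio of the 6 members was 1.19, beside -0.01 over all genes tested. The 10 macrophage markers had a median of 1.24, and 5 of them were past 2-fold. Emr1, which encodes the F4/80 antigen used in the sort, was at 45.3 FPKM (M1) and 215 (CD4), while the CD11b gene Itgam had 299 FPKM in M1 and 201 in CD4. Whether the make-up of the sorted cells accounts for the member ratios was not tested.

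The levels in the library labelled M2 were between 3.21% (Fcgr3) and 6.93% (Fcgr4) of those in the CD4 library, with a median of 4.58%. Macrophage markers there were at a median of 4.05%, from 1.68% to 15.3%. Relative to the M1 library the median was 8.27% for the 6 members and 10.7% for the macrophage markers. The members thus stood within the range of the macrophage markers in both comparisons, apart from Fcgrt at 27.9% of the M1 library, where the highest marker was at 24.4%.

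Other cells that carry these receptors were checked by their markers. B cells express Fcgr2b as their Fc gamma receptor, and 5 of 7 B cell markers were past 2-fold higher in the M2 library, with Cd79a at 18.2 FPKM there, 0.161 in M1 and 0.151 in CD4. Their summed level was 57.7 FPKM in M2, 0.457 in M1 and 0.518 in CD4, with Pax5 and Cd79b listed at 0 in M2. Neutrophil markers, 8 in all, summed to 241 FPKM in M2, 69.5 in M1 and 36.2 in CD4, with S100a9 at 110, 28.1 and 6.08. Of these markers, Ly6g was listed at 0 in M2. Csf3r went the other way from the sum, at 8.40 FPKM in M2, 19.7 in M1 and 25.3 in CD4. The 6 NK cell markers summed to 16.6 FPKM in M2, 4.00 in M1 and 0.462 in CD4, with Prf1 listed at 0 in M2 and in M1. Klrb1c made most of the M1 sum and was lower in M2, at 3.18 FPKM in M1, 0.735 in M2 and 0 in CD4. Mast cell and basophil markers, 6 in all, summed to 2.18 FPKM in M2, 0.187 in M1 and 0.0691 in CD4. Dendritic cell markers, 5 in all, summed to 21.9 FPKM in M2, 126 in M1 and 31.7 in CD4, led by Itgax, which macrophages also express, at 124 FPKM in M1. The other 4 went the opposite way, with a sum of 16.6 FPKM in M2, 2.21 in M1 and 2.15 in CD4. For Fcgrt, which kidney epithelium and endothelium also express, the 9 kidney epithelial markers summed to 192 FPKM in M2, 73.2 in M1 and 93.2 in CD4. The 7 endothelial markers summed to 36.9, 6.81 and 6.83 FPKM in that order, of which Pecam1 made 35.0 in M2. The other 6 summed to 1.88 FPKM in M2, 5.01 in M1 and 5.41 in CD4, with Vwf listed at 0 in M2. The part of these cells in the member levels was not tested. Zeros need care here, because Rps18, which encodes a ribosomal protein, also stood at 0 in all 3 libraries in the used rows, and because Pax5 had 6.49 FPKM and Prf1 7.04 in M2 when all rows were summed.

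Activating and inhibitory receptors were then set against each other within each library, where the library size cancels. Fcgr2b exceeded the 3 activating receptors together in every library, and the balance differed between libraries. The ratio of activating to inhibitory FPKM was 0.297 in the library labelled M1 (counting interval 0.292 to 0.302), 0.457 in that labelled M2 (0.429 to 0.486) and 0.596 in that labelled CD4 (0.590 to 0.603). It was thus 2.01-fold higher in the CD4 than in the M1 library. The summed activating receptors were at 181 FPKM (M1), 17.2 (M2) and 466 (CD4), a CD4 to M1 ratio of 2.57, beside 1.28 for Fcgr2b.

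In the rows used, Fcgr2b made up 77.1% of the FPKM of the 4 receptors in the M1 library, 68.6% in M2 and 62.6% in CD4. Fcgr3 took most of the remainder, with 12.3%, 17.4% and 23.7% in the same order. Fcgr1 held 8.81%, 8.59% and 10.2%, nearly the same share in each library in these rows. With all rows summed, Fcgr2b was at 4431 FPKM in M1 and Fcgr1 still at 69.7, so that its share there was far lower. The share of Fcgr4 was 1.80% (M1), 5.38% (M2) and 3.40% (CD4), so that the M2 library, with the lowest level, had the largest share of it. Fcgr3 alone against Fcgr2b gave 0.159, 0.253 and 0.379 for M1, M2 and CD4, in the same order as the sum.

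**Figure D2:**
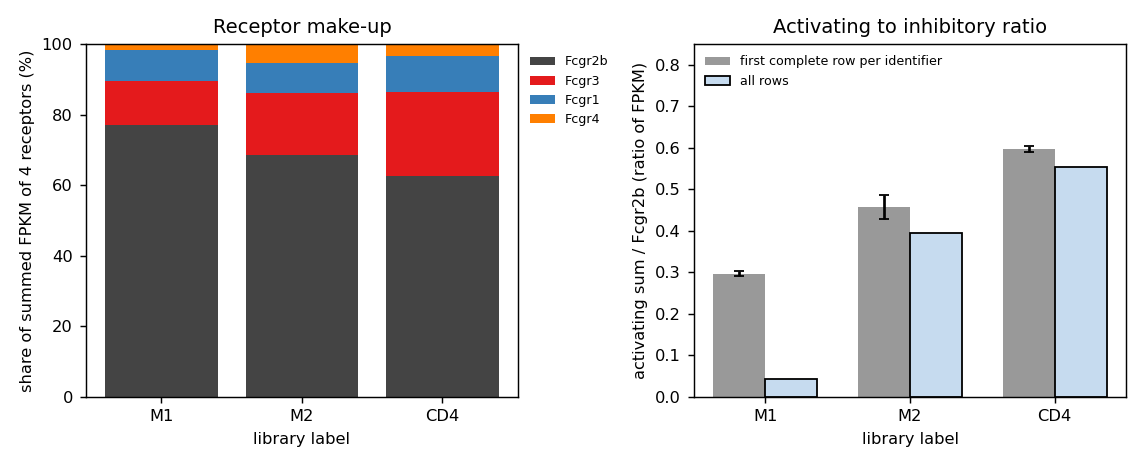
Left, share of each of the 4 receptors in their summed FPKM (percent) by library, for the rows used. Right, ratio of the summed FPKM of Fcgr1, Fcgr3 and Fcgr4 to that of Fcgr2b, in grey with bars for the 95% counting interval for the rows used, and in light blue for the sum of all rows. The ratio is lowest in M1 and highest in CD4 under both, and the M1 value drops from 0.297 to 0.0418 when all rows are summed.

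The level of Fcgr2b in the library labelled M1 rests on the choice of rows. The table holds 11 rows for 7 annotated transcripts of this gene, and 4 rows that lack a value in at least one library were not used. One of these, of the transcript Fcgr2b-002, which the annotation gives as a target of nonsense-mediated decay, was at 3729 FPKM in the M1 library and had no value in the others. Together the unused rows held 3821 FPKM in M1, 5.98 in M2 and 60.6 in CD4. With them Fcgr2b was at 4431 FPKM in M1 and the activating to inhibitory ratio at 0.0418, against 0.394 in M2 and 0.554 in CD4. Such a gain was uncommon: in the M1 library, 1.09% of 10962 genes with at least 1 FPKM gained as large a factor, 7.26-fold, from unused rows. With the rows of protein-coding transcripts alone, a setting chosen after the values were seen, the M1 ratio was 0.304. The order of the libraries was the same in each of these settings.

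**Figure D3:**
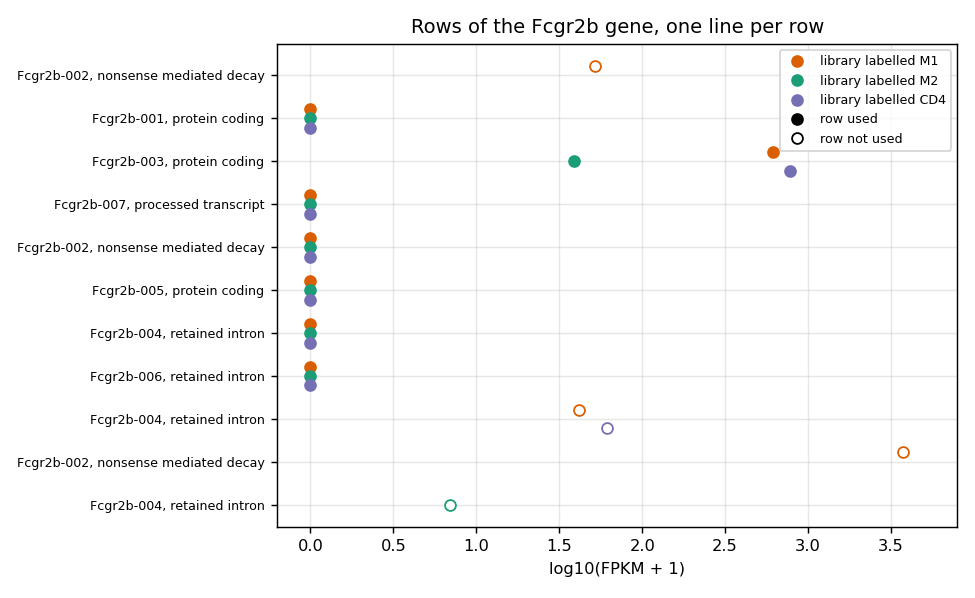
Each line is 1 row of the deposited table that belongs to Fcgr2b, with its level as log10(FPKM + 1) in the libraries labelled M1, M2 and CD4. Filled points are rows used and open points are rows not used. Among rows with values in all 3 libraries only Fcgr2b-003 lies above 0, and the highest point is an unused row of the M1 library at 3729 FPKM.

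Fcgr2b RNA exists with and without a coding exon of the cytoplasmic tail. The longer form is the one known from B cells and the shorter the one known from macrophages. The deposited table lists both, as Fcgr2b-001 with 1603 bases and Fcgr2b-003 with 1462 bases. The exon lies at chr1:172893456-172893596 of NCBIM37 and is exon 6 of Fcgr2b-001, with 141 bases. In Fcgr2b-003 the flanking exons join, between chr1:172891350 and 172895847, and capitals mark the 3 bases on each side of that junction.
Exon of Fcgr2b-001: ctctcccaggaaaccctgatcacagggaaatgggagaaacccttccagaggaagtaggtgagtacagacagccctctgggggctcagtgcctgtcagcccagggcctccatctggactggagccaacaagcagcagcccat
Junction of Fcgr2b-003: aaaagcaggttcCAGACAatcctcctgatc
All of the Fcgr2b level in the used rows was on Fcgr2b-003, at 610 FPKM (M1), 37.6 (M2) and 781 (CD4). Fcgr2b-001 was listed at 0 in all 3 libraries, including that labelled M2, where the B cell markers were highest. Cufflinks divides fragments between forms by a model, and these 2 forms are identical apart from the exon shown.

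The other members with several coding forms were described in the same way. Fcgr3-002 held the level of Fcgr3, with 97.2, 9.51 and 296 FPKM in M1, M2 and CD4, and Fcgr3-001 was listed at 0 in each. The lengths of these forms differ by 3 bases in the coding sequence and by 20 outside it. How many fragments tell the forms apart was not tested. The Fcgr1 level was divided between Fcgr1-201, at 41.7, 2.62 and 68.4 FPKM, and Fcgr1-203, at 27.9, 2.08 and 58.9 FPKM in the same order. Fcgr1-203 has a coding sequence of 1011 bases, against 1215 in Fcgr1-201. Its share of the Fcgr1 level was 40.1% in M1, 44.2% in M2 and 46.3% in CD4, so that the make-up of Fcgr1 was nearly alike in the 3 libraries.

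Fcgr2b and Fcgr3 share sequence in their extracellular part, which limits how fragments can be assigned to either. The longest run identical in Fcgr2b-003 and Fcgr3-002 has 129 bases, all coding. It lies in exons 3 and 4 of each, between chr1:172896805 and 172898212 for Fcgr2b and between chr1:172984298 and 172987923 for Fcgr3, introns included.
Run shared by Fcgr2b and Fcgr3: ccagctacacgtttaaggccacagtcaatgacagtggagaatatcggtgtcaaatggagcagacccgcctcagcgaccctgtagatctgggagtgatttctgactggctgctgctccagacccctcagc
Of the 50-base windows of Fcgr3-002, 13.0% were also in Fcgr2b-003, and of those of Fcgr2b-003, 11.7% were in Fcgr3-002. No 50-base window was shared between any other pair among these forms and Fcgr1-201 and Fcgr4-001. The ratio of Fcgr3 to Fcgr2b is uncertain to the extent that these fragments were divided wrongly.

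The windows before the starts of these genes were read for a short motif, chosen after the levels were seen. GAGGAA is bound by the myeloid factor PU.1. Promoter windows of RefSeq (build GRCm38.p6, not the build of the table), from 250 bases before to 50 after the start, were found for all 6 genes, with 2 for Fcgr3. On either strand, GAGGAA was in the windows of Fcgr1, Fcgr3 and Fcgr4, the activating receptors, and in those of neither Fcgr2b, Fcer1g nor Fcgrt. It was in 28.3% of 32851 windows of all genes. Capitals mark the motif, which reads as its reverse complement in each.
Fcgr1 (chr3:96294000-96294059, reverse strand): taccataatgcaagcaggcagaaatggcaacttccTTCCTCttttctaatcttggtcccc
Fcgr3 (chr1:171059395-171059454, reverse strand): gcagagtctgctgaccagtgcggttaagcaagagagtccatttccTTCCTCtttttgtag
Fcgr4 (chr1:171018866-171018925, forward strand): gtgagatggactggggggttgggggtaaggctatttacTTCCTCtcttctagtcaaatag
Of 3 spellings searched, the longer GAGGAAG, in 13.6% of all windows, was in the same 3 genes, and the shorter AGGAAG, in 35.4%, was also in Fcer1g. Both overlap GAGGAA. A match is a description of the letters and not a binding site.

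Genes that act with the receptors were taken as lists that were chosen for their roles. Of 20 genes of activating signalling, 19 had a level and Syk was not analysed here. In the M2 library 11 were past 2-fold lower than in M1 and 2 higher, where 14.5% of 12443 genes were lower and 17% higher. The median log2 ratio was -1.27, beside 0.10 over all genes. Within 2-fold were 6, among them Lcp2 at 53.0 FPKM in M1 and 63.1 in M2, and Pik3cd at 58.3 and 87.7. Those higher were Cbl, at 0 in M1 and 25.9 in M2, and Rac2, at 34.2 and 211. With all rows Cbl was at 35.8 and 29.7 and Rac2 at 185 and 211, both within 2-fold. Btk and Pik3r1 were then past 2-fold higher in M2. Lyn, a Src family kinase that phosphorylates the ITAM, was at 118 FPKM in M1, 15.2 in M2 and 117 in CD4. The adaptor Lat2 followed the same pattern, at 56.7 FPKM in M1, 7.69 in M2 and 55.5 in CD4. The kinase Btk did so only in the rows used, at 40.6, 5.35 and 38.9 FPKM, since an unused row brought it to 104937 FPKM in M2 when all rows were summed.

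Between the libraries labelled CD4 and M1, 16 of the 19 were within 2-fold, where 6.98% of 11587 genes were higher and 7.24% lower. Most of all genes tested were thus within 2-fold too. The median log2 ratio of the 19 was -0.02, beside -0.01 over all genes. Fgr, another Src family kinase, was the exception in the lower direction, at 80.1 FPKM in M1, 6.90 in CD4 and 6.03 in M2, an 11.6-fold difference between M1 and CD4 that was the same with all rows. Cbl and Rac2 were past 2-fold higher in CD4 in the rows used and with the largest row of each identifier. With all rows both were within 2-fold, Cbl at 35.8 FPKM in M1 and 29.9 in CD4, and Rac2 at 185 and 95.1.

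Of 6 inhibitory signalling genes, 2 were past 2-fold lower in M2 than in M1 and 0 higher. Over all 12443 genes tested, 14.5% were lower and 17% higher. The median log2 ratio of the 6 was -0.92, beside 0.10 over all genes. With all rows 1 of the 6 was lower, as Dok2 was then within 2-fold at 172 FPKM in M1 and 87.3 in M2. Inpp5d encodes SHIP-1, the phosphatase that acts downstream of Fcgr2b. It was at 53.9 FPKM (M1), 28.8 (M2) and 66.5 (CD4). Ptpn6, which encodes the phosphatase SHP-1, was at 130, 81.8 and 129 FPKM. Both were within 2-fold between M2 and M1, unlike the receptors. Between M2 and CD4, Ptpn6 was again within 2-fold, but Inpp5d was past 2-fold lower in M2, as the receptors were. In that comparison 2 of the 6 were past 2-fold lower in M2 and 0 higher, where 15.3% of 12438 genes were lower and 17.3% higher. With all rows, or with the largest row of each identifier, 3 of the 6 were lower. Between CD4 and M1, 5 of the 6 were within 2-fold, where 6.98% of 11587 genes were higher and 7.24% lower. Dok2, an adaptor, was past 2-fold lower in CD4, at 63.2 FPKM against 145 in M1. With all rows these became 88.6 and 172, within 2-fold.

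The adaptor Tyrobp (DAP12), which carries an ITAM like Fcer1g, was at 688 FPKM (M1), 68.0 (M2) and 700 (CD4), near in pattern to Fcer1g. The ITAM chains of T cells went the other way. Cd247, Cd3d, Cd3e and Cd3g were at 72.9 to 203 FPKM in M2, and Cd247 was listed at 0 in M1 and CD4 while the CD3 chains were at 0.0967 to 0.264. Of the 7 genes of this list, 5 were past 2-fold higher in M2 than in M1 and 1, Tyrobp, was lower. Those 5 passed the filter only through M2, and 17% of all 12443 genes were higher and 14.5% lower.

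Of 6 receptors that pair with Fcer1g, 3 were past 2-fold lower in the M2 than in the M1 library and 1, Ncr1, was higher. The shares over all 12443 genes were 14.5% lower and 17% higher. Clec4n, which encodes the fungal receptor Dectin-2, was at 386 FPKM (M1), 15.9 (M2) and 330 (CD4). Clec4e, which encodes Mincle, and Clec4d were at 29.5 and 37.2 FPKM in M1 and at 4.11 and 8.62 in CD4. Clec4e and Clec4d were thus 7.17-fold and 4.31-fold lower in CD4 than in M1, whereas Fcgr3 and Fcgr4 were higher there. Ncr1, an NK cell receptor, was at 1.18 FPKM in M2 and 0.0350 in M1, Oscar was at 0.0196 in M1 and listed at 0 elsewhere, and Gp6 was listed at 0 in each library.

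Among 12 other Fc receptor and Fc receptor-like genes, 6 passed the filter between M2 and M1. Of these, 4 were past 2-fold higher in M2 and 2 lower, where 17% of 12443 genes were higher and 14.5% lower. Those higher included Faim3, which encodes the IgM receptor, at 0.0887 FPKM (M1), 14.2 (M2) and 0.0547 (CD4). Trim21, a cytosolic antibody receptor, was at 3.95, 11.6 and 3.83 in that order. Fcer2a, the low-affinity IgE receptor of B cells, was at 0.0248, 7.92 and 0.0295, and Fcrl1 at 0.559, 5.66 and 1.02. Faim3, Fcer2a and Fcrl1 passed the filter only through M2, and Fcrlb only through M1, so that their direction was largely set by the filter. Fcrls, an Fc receptor-like gene of myeloid cells, was at 107 FPKM (M1), 11.1 (M2) and 317 (CD4). Fcrlb was at 8.28 FPKM in M1, 1.16 in CD4 and 0 in M2. The high-affinity IgE receptor genes Fcer1a and Ms4a2 were at most at 0.179 and 0.178 FPKM, both in M2. Of 4 IgG heavy chain genes, whose products are the ligands, Ighg2b and Ighg3 were not analysed here. The others were past 2-fold higher in M2 than in either other library, but passed the filter only through M2. Ighg1 was at 7.30 FPKM in M2, 0.0129 in CD4 and 0 in M1. The entry named Ighg2c in the reference was at 2.63, 0.000555 and 0.0430 in that order. The reference is of another strain than the BALB/C mice, and which heavy chain gene of these mice the Ighg2c level stands for was not tested.

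Of 12 genes known to set Fc gamma receptor levels, 11 had a level, and Spi1, which encodes PU.1, was not analysed here. Ifng, which encodes the cytokine interferon gamma, was at 0.0320 FPKM (M1), 2.52 (M2) and 0.0290 (CD4), higher in M2. Il4ra, a chain of the receptor for interleukin-4, was past 2-fold higher in CD4 than in M1, at 69.6 and 23.0 FPKM, and in M2 it was at 22.5. C5ar1, the receptor for complement C5a, was at 45.2 FPKM (M1), 4.31 (M2) and 86.1 (CD4), and Il10ra at 47.1, 3.05 and 56.9.

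**Figure D4:**
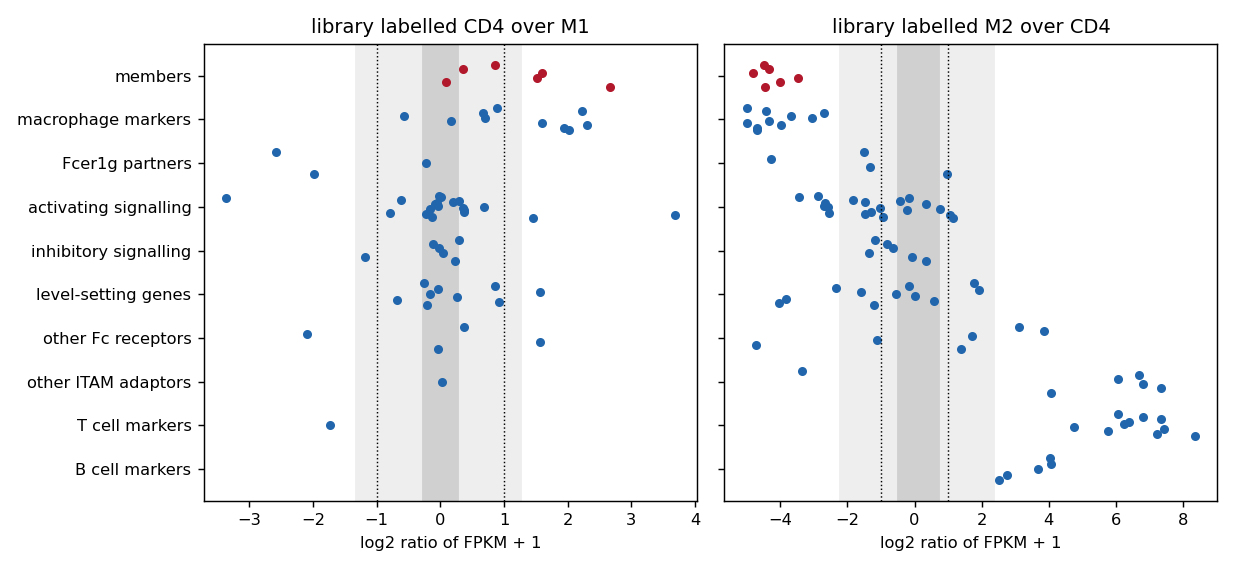
Log2 ratio of FPKM + 1 for each gene that reached 1 FPKM in either library compared, CD4 over M1 on the left and M2 over CD4 on the right, by gene list. Dark and light grey mark the middle 50% and 90% of all genes and dotted lines mark 2-fold. The 6 members (red) lie from 0.09 to 2.66 on the left and from -4.82 to -3.46 on the right, beside the macrophage markers. On the right they lie opposite the T cell markers, of which only 1, Cd2, is plotted on the left.

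Genes with the most similar pattern were sought among 6404 protein-coding genes with at least 10 FPKM in a library, as the distance between log2(FPKM + 1) values centred on each gene's mean, over only 3 libraries. For Fcgr3 they were Fcrls, at a distance of 0.07, and Mrc1, the mannose receptor, at 0.14, with 215, 19.5 and 649 FPKM in M1, M2 and CD4. Fcgr1 was nearest to P2ry6 (0.13), a nucleotide receptor, and C3ar1 (0.14), the receptor for complement C3a. The nearest to Fcgr4 were Cd300a (0.11) and Fgd2 (0.14), and to Fcgrt BC055004 (0.13) and F13a1 (0.17), a coagulation factor subunit at 54.3, 13.7 and 378 FPKM. Of the 3 nearest to Fcer1g, Clec4a3 (0.06) had a level above 0 in M2, at 91.9, 5.51 and 103 FPKM, and those of Fcgr2b (Oas1g, Tspyl1 and Mtx1) were all listed at 0 in M2.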

How the data were processed

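RNA of 3 sorted cell subsets was sequenced with 1 library each. The FPKM values were deposited by the authors as 1 table of transcripts with a column for each library, after alignment with TopHat 1.4.1 and Bowtie 0.12.8 to mm9 and assembly with Cufflinks 2.1.0 guided by Ensembl release 67. The labels also name Cuffdiff. How the assemblies were joined is not given in the sources used here. Cufflinks divides fragments among overlapping transcripts, and short or partial assemblies can carry high FPKM. BALB/C reads were aligned to a reference of another strain.

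Identifiers were joined to GENCODE vM1 (NCBIM37, which is mm9), and 90316 of 92519 were found. For each identifier the first row with a value in all 3 columns was kept, and rows were summed per gene, which left out 11 of the 29 rows of the 6 genes. Depth is not part of FPKM. It was therefore estimated as the fragment unit seen most often, at low FPKM multiplied by length, in coding genes with a single transcript between 2500 and 8000 bases long. Counting intervals are at 95%. The pseudocount was 1, the minimum 1 FPKM and the fold 2. No test was possible with 1 library a subset. The ratio calls were tested on simulated data, which checks the calculation and not how the calls would vary between mice, sorts or choices of rows. The ITAM pattern was a tyrosine, any 2 residues and a leucine or isoleucine, repeated after 6 to 12 residues. The ITIM pattern was isoleucine, leucine, valine or serine, any residue, a tyrosine, any 2 residues and leucine, valine or isoleucine.

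The genes, lists and settings were chosen with earlier results of these data known. The genes named are the 6 members, genes of the lists, cell type markers and the 3 nearest in pattern to each member, and Rps18 as a check of zeros. Alternatives were the rows used, the scaling, the pseudocount, the filter and the receptors summed. The software was Biopython 1.88, matplotlib 3.10.9, scipy 1.17.1, pandas 2.3.3 and numpy 2.4.6 under Python 3.11.15. Results of some genes on the lists are not reported here.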

Additional observations from a re-analysis of the deposited data

Results flagged for a closer look

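Rows of the 6 genes that the levels above do not use held signal above the level of 3 fragments. For Fcgr2b they summed to 3821 FPKM in the library labelled M1, 60.6 in that labelled CD4 and 5.98 in that labelled M2. Those of Fcgrt summed to 12.3 FPKM in M1 and 5.61 in M2. The unused row of Fcgr4 was at 3.33 FPKM in M1, and those of Fcgr3 were at 0.872 in M1 and 0.375 in CD4. Beyond Fcgr2b in M1, adding these rows raised a level by at most 1.35-fold, for Fcgrt in M2. No unused row was found for Fcgr1 or Fcer1g. Why the M1 library alone had a value in the row at 3729 FPKM was not tested.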

How the results depend on the processing

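No paired analysis was possible because M1, M2 and CD4 are single libraries, so leaving out a replicate was not possible either. The ratio of Fcgr2b between CD4 and M1 turned from 1.28 to 0.190 with all rows and to 0.192 with the largest row of each identifier, so that 1 member was then past 2-fold lower in CD4, against 0. The activating to inhibitory ratio of 0.297 (M1), 0.457 (M2) and 0.596 (CD4) was 0.0418, 0.394 and 0.554 with all rows. With the largest row it was 0.0415 in M1 and 0.553 in CD4. With Fcgr3 alone as activating receptor it was 0.159, 0.253 and 0.379, and with Fcgr3 and Fcgr4 0.183, 0.332 and 0.433, by construction. All rows of protein-coding transcripts, chosen after seeing the data, gave 0.304 in M1. M1 was lowest and CD4 highest in each setting tried. Under the row and scaling settings, members in M2 were at most 0.316 of their M1 level (Fcgrt) and 0.0777 of their CD4 level (Fcgr4). Rescaling to equal totals moved the median log2 ratio of all genes between M2 and M1 from 0.10 to 0.29 and between M2 and CD4 from 0.12 to 0.29, and genes higher in M2 from 2110 to 3508 against M1 and from 2156 to 3463 against CD4. Counts of list genes under alternatives were within 1.5 times the count given in 316 cases and beyond it in 20. The 316 include the cases in which a count of 0 stayed at 0, which say little about stability.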
